A study of Mus musculus with 7 samples.

Results

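A set of 10 genes of the blood vessel lining were followed here in mouse skin: the growth factor receptors Kdr, Flt1, Tek and Tie1, the co-receptor Eng, the junction genes Cdh5, Pecam1 and Cldn5, the surface sialomucin Emcn and the secreted protein Egfl7. They were found by gene symbol in the count table, where all 10 of the 10 had a row, among 56691 genes in all, of which 19128 had any count. The samples were skin of healthy appearance from 3 mice lacking Tuft1 (knockout mice 2, 3 and 4) and healthy skin from 4 wild-type mice (mice 5, 6, 7 and 8), with 1 library per mouse. The strain, age, sex and body site of the mice, and the knockout allele, are not given in the sources used here. Tuft1 encodes tuftelin 1, a protein the study associates with desmosomes.

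Endothelial cells line all blood and lymphatic vessels. VEGF signals through the receptor tyrosine kinases Kdr and Flt1 to drive vessel growth and permeability, and the angiopoietins signal through Tek, with Tie1 as its partner, to keep vessels quiet and stable. Neighbouring cells are held together by VE-cadherin (Cdh5) in adherens junctions, by claudin 5 (Cldn5) in tight junctions and by the adhesion molecule PECAM-1 (Pecam1). In skin these vessels form plexuses in the dermis and dense capillary nets around hair follicles and in the fat layer below.

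Each library counted reads near the 3' ends of polyadenylated RNA, so a level is given in CPM, counts relative to library size after trimmed-mean (TMM) scaling, and is not divided by gene length. The libraries held 7009237 to 9256459 counts, with 12302 to 14379 genes detected. Tuft1 itself was at 22.1 ± 6.23 CPM in knockout skin (SD, n = 3) and 94.9 ± 26.6 CPM in wild-type skin (SD, n = 4), without overlap between the groups. The edgeR quasi-likelihood test called a gene at a Benjamini-Hochberg adjusted p under 0.05 over the 12888 genes with enough counts. It called 3 genes, or 0.0233% of those tested, and Tuft1 was not among them (log2 fold change -2.10, SE 0.39, adjusted p = 0.172). Over the alternative settings the adjusted p of Tuft1 ranged from 8.77e-06 in the DESeq2 Wald test to 0.650, and edgeR without the filter on low counts also called it (0.000924).

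Tek and Cldn5 had no counts in any knockout library, Pecam1 was lower in each knockout mouse than in any wild-type mouse, and the other 7 genes overlapped between the groups while counted in at least 2 knockout mice. Of the 10 genes, 9 had a log2 fold change below 0 (knockout over wild type) and 1 above, with a median of -0.79. Over all genes tested, 50.5% lay below 0 and the median was -0.01. By edgeR's quasi-likelihood test 0 of the 10 were called, against the 0.0233% called over all genes (0.00776% lower and 0.0155% higher in the knockout). Limma-voom also called 0 of the 10, where it called 0.171% of all genes. The DESeq2 Wald test gave an adjusted p for 9 of the 10, all but Cldn5, and called 0 of these. It called 0.985% of the 12493 genes to which it gave an adjusted p. Unadjusted edgeR p-values under 0.05 were given by 3 of the 10 (Tek, Pecam1 and Cldn5), all with lower knockout levels, and by 4.31% of all genes (2.59% lower in the knockout). A count of 0 in at least 1 library was found for 4 of the 10 (Tek, Cldn5, Emcn and Eng) and for 35.8% of all genes. Tek and Cldn5 reached the minimum count for testing only through the wild-type libraries, so they had to differ to be tested at all.

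The summed level of the 10 genes was 177, 248 and 162 CPM in knockout mice 2, 3 and 4, against 344, 277, 234 and 329 CPM in wild-type mice 5, 6, 7 and 8. Knockout mouse 3 lay above wild-type mouse 7, so the groups overlapped. A difference in their summed level was not established, since the groups overlapped and edgeR called none of the 10 genes. Were there one, fewer endothelial cells and less RNA per endothelial cell could not be told apart in whole skin.

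**Figure D1:**
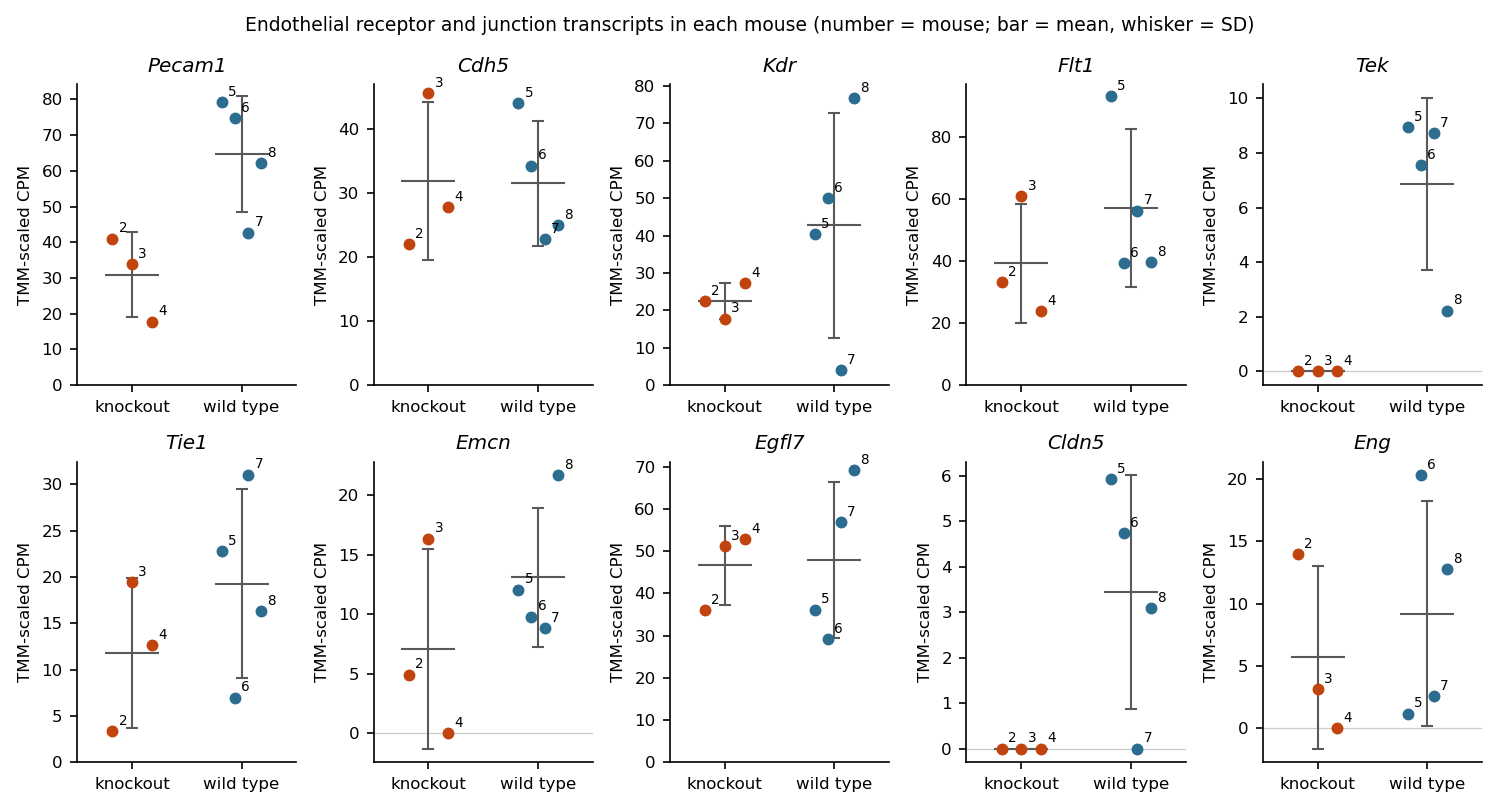
Level of each of the 10 endothelial genes (TMM-scaled CPM, y axis) in knockout mice 2 to 4 and wild-type mice 5 to 8 (points, numbered by mouse), with the mean as a bar and the SD as whiskers, which may reach below 0. Tek lies at 0 in the 3 knockout mice and between 2.23 and 8.94 CPM in the 4 wild-type mice, with overlap between the groups for all genes but Tek and Pecam1.

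Tek (ENSMUSG00000006386.16, chromosome 4, 94627526 to 94763213 on the plus strand, mm39) encodes TIE2, the receptor of the angiopoietins. It had 0, 0 and 0 counts in knockout mice 2, 3 and 4, against 83, 67, 71 and 18 counts in wild-type mice 5, 6, 7 and 8. The wild-type counts correspond to 8.94, 7.54, 8.71 and 2.23 CPM. All knockout libraries were thus empty for this gene, all wild-type libraries held it, and wild-type mouse 8 was the lowest of its group. A count of 0 allows up to 3 counts per library, which is 0.388, 0.336 and 0.395 CPM in knockout mice 2, 3 and 4 by counting error alone. The wild-type mean of 6.86 CPM was 18.4-fold above the mean of these limits, 0.373 CPM. This ratio leaves out the spread between mice, so it is no lower bound on the difference between genotypes. The exact two-sided permutation test on log2(CPM + 1) gave p = 0.0286, the smallest that the 35 splits of 7 mice allow. In the fit over all genes Tek ranked 228 by p (unadjusted p = 0.0178, edgeR adjusted p = 0.9997). Its adjusted p ranged from 0.0504 in the DESeq2 Wald test to 0.99999 over the alternative settings. Since Tek entered the fit only through its wild-type counts, its p-values and rank are no independent support for a difference. Zero counts in all 3 knockout libraries occurred in 104 of the 12888 genes tested (0.807%), and zero counts in all 4 wild-type libraries in 22 (0.171%). These shares are not alike, because the groups hold 3 and 4 libraries and the filter on low counts acts on them unequally. No excess of empty genes in the knockout can be read from them.

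Tie1 (ENSMUSG00000033191.15, chromosome 4, 118328388 to 118347258 on the minus strand, mm39), the orphan receptor that pairs with TIE2, was counted in all libraries. Its level was 3.37, 19.5 and 12.6 CPM in knockout mice 2, 3 and 4, against 22.8, 6.98, 31.1 and 16.3 CPM in wild-type mice 5, 6, 7 and 8. These ranges overlapped widely, with knockout mouse 2 lowest and wild-type mouse 7 highest. The log2 fold change was -0.71 (SE 0.98, edgeR adjusted p = 0.9997).

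The promoters of this receptor pair and of Cldn5 are shown because Tek and Cldn5 were at 0 in the knockout while Tie1, the partner of Tek, was counted in each mouse. They come from RefSeq on GRCm38.p6, another build than the mm39 of the counts, and run from 250 bases before to 50 after the start site, 5′ to 3′ on the gene's strand. Capitals mark AGGAA or its complement TTCCT, the core of sites for ETS factors, a family with known roles in endothelial transcription. The Tek window is chr4:94739039-94739338 (plus strand), that of Tie1 chr4:118489800-118490099 (minus strand) and that of Cldn5 chr16:18776597-18776896 (plus strand).
Tek: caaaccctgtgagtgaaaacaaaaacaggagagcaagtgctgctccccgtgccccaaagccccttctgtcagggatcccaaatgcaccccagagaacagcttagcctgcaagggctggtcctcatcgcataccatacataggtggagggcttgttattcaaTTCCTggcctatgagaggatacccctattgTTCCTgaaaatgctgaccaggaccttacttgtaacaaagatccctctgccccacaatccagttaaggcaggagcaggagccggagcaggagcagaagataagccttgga
Tie1: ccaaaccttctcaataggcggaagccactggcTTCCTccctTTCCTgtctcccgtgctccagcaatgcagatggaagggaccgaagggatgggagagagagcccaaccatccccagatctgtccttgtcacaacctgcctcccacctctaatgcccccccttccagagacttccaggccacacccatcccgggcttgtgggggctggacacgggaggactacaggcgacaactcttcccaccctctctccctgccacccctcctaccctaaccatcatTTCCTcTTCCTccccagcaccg
Cldn5: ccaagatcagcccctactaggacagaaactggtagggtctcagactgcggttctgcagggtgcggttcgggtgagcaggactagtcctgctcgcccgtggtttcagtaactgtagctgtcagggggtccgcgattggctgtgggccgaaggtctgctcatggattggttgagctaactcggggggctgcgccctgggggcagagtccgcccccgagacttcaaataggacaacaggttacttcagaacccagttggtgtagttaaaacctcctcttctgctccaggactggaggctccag
The Tek window held 2 matches, the Tie1 window 4 and the Cldn5 window 0. On both strands, 66.7% of 32851 promoters of this length hold at least 1 match. RefSeq windows were at hand for 8 of the 10 genes, 10 windows in all, and 8 of these held a match; Pecam1 and Cdh5 were the genes without one. The GATA motif AGATAA occurred in 1 of the 10 windows, that of Tek, where it begins at base 37 after the start, and in 11.2% of all promoters. The SOX motif ACAAT occurred in 2 of the 10 windows, Tek and Emcn, and in 31.0% of all promoters, and 1 of its 2 matches in Tek shares a base with an AGGAA match. These matches describe letters and are not binding sites.

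The VEGF receptors were counted in all 7 mice and their groups overlapped. Kdr (ENSMUSG00000062960.11, chromosome 5, 76093487 to 76139118 on the minus strand) encodes VEGFR2, the main signalling receptor for VEGF. It was at 22.5, 17.8 and 27.4 CPM in knockout mice 2, 3 and 4, against 40.4, 49.97, 3.93 and 76.7 CPM in wild-type mice 5, 6, 7 and 8. Wild-type mouse 7 was the lowest of all 7 mice and the other wild-type mice lay above each knockout mouse. The log2 fold change was -0.92 (SE 0.75, edgeR adjusted p = 0.9997), -1.30 with wild-type mouse 7 left out and -0.48 with wild-type mouse 8 left out.

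Flt1 (ENSMUSG00000029648.14, chromosome 5, 147498414 to 147662821 on the minus strand) encodes VEGFR1, which binds VEGF tightly and can act as a decoy. Its level was 33.1, 60.9 and 23.9 CPM in knockout mice 2, 3 and 4, against 93.3, 39.3, 56.3 and 39.7 CPM in wild-type mice 5, 6, 7 and 8. Knockout mouse 3 stood above 3 of the 4 wild-type mice. Its log2 fold change was -0.54 (SE 0.47, edgeR adjusted p = 0.9997), -1.003 without knockout mouse 3 and -0.20 without wild-type mouse 5.

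Eng (ENSMUSG00000026814.17, chromosome 2, 32536607 to 32572681 on the plus strand) encodes endoglin, a co-receptor for BMP and TGF-beta ligands. It was at 13.98, 3.14 and 0 CPM in knockout mice 2, 3 and 4, against 1.18, 20.3, 2.58 and 12.7 CPM in wild-type mice 5, 6, 7 and 8. Both groups held mice near 0 and mice above 12 CPM. The log2 fold change of -0.69 had an SE of 1.92, and it was -2.54 without knockout mouse 2 and 0.04 without wild-type mouse 6. Exons of Eng share 61 bases with Fpgs on the opposite strand, a gene at 5.73 ± 4.30 CPM in knockout skin, against 3.12 ± 2.31 CPM in skin of the wild type. The sources used here do not give the strand setting of the counting, so Eng is uncertain by that overlap.

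Among junction genes Pecam1 was lower in each knockout mouse, the ranges of Cdh5 nearly coincided and Cldn5 had counts in 3 wild-type mice and in no knockout mouse. Pecam1 (ENSMUSG00000020717.20, chromosome 11, 106545043 to 106641454 on the minus strand) had 41.0, 33.8 and 17.8 CPM in knockout mice 2, 3 and 4, against 79.1, 74.7, 42.7 and 62.1 CPM in wild-type mice 5, 6, 7 and 8. No overlap was seen, but knockout mouse 2 and wild-type mouse 7 were nearly equal. The mean in knockout skin was 30.9 ± 11.9 CPM (SD, n = 3) and that in wild-type skin 64.7 ± 16.3 CPM (SD, n = 4), or 47.7% of the wild-type level. The log2 fold change was -1.07 (SE 0.43, unadjusted p = 0.0269, edgeR adjusted p = 0.9997), within -1.33 to -0.79 over 13 alternative settings, none of which called it. The exact two-sided permutation test gave p = 0.0571. Tek and Pecam1 are the 2 of 10 genes whose knockout values all lay below the wild-type values, as did those of 3.45% of all genes tested. None of the 10 lay above without overlap (3.44% of all). Tek was tested only through its wild-type counts, and the 10 genes were chosen with earlier results of these data known. These shares are therefore no test of the 10 genes.

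PECAM-1 is also carried by platelets and many leukocytes. The pan-leukocyte gene Ptprc was at 19.8 ± 5.75 CPM in knockout skin, against 32.0 ± 2.58 CPM in skin of the wild type, with no overlap between the groups and an edgeR adjusted p = 0.9997. It was 1 of 2 leukocyte genes below 0 among 8 tested, with 6 above 0 and a list median of 0.31, and edgeR called 0 (0 at an unadjusted p under 0.05). The macrophage gene Lyz2 was at 185 ± 60.8 CPM in knockout skin, against 130.4 ± 56.1 CPM in skin of the wild type. The summed level of 10 leukocyte genes ranged from 331 to 641 CPM in knockout skin, against 294 to 474 CPM in skin of the wild type. That of 6 platelet genes, mostly from Pf4, ranged from 36.2 to 250 CPM in knockout skin, against 86.7 to 155 CPM in skin of the wild type, with Gp9 at 0 in each library. Their part in the Pecam1 values was not tested.

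Cdh5 (ENSMUSG00000031871.10, chromosome 8, 104828257 to 104871143 on the plus strand), which encodes the cadherin found almost solely in endothelium, was at 22.003, 45.7 and 27.9 CPM in knockout mice 2, 3 and 4. Wild-type mice 5, 6, 7 and 8 had 44.1, 34.3, 22.8 and 25.0 CPM. Knockout mouse 3 was highest and knockout mouse 2 lowest of all, by small margins, and the log2 fold change was 0.01 (SE 0.54, edgeR adjusted p = 0.9997), with a range of -0.34 to 0.22 over the alternative settings.

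Cldn5 (ENSMUSG00000041378.3, chromosome 16, 18595597 to 18597012 on the plus strand) had 0, 0 and 0 counts in knockout mice 2, 3 and 4, against 55, 42, 0 and 25 counts in wild-type mice 5, 6, 7 and 8. Wild-type mouse 7 was as empty as the knockout mice, so the groups overlapped. The wild-type mean of 3.44 ± 2.57 CPM was 9.21-fold above 0.373 CPM, the mean limit for 0 counts in the knockout libraries. This ratio covers counting error only. It leaves out the spread between mice, so it is no lower bound on the difference between genotypes. The exact two-sided permutation test gave p = 0.143, and edgeR an adjusted p = 0.9997.

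The sialomucin endomucin, Emcn (ENSMUSG00000054690.18, chromosome 3, 137046828 to 137137946 on the plus strand), marks capillary and venous endothelium. It was at 4.92, 16.4 and 0 CPM in knockout mice 2, 3 and 4, against 12.1, 9.79, 8.84 and 21.7 CPM in wild-type mice 5, 6, 7 and 8. Knockout mouse 3 was second only to wild-type mouse 8, while the other knockout mice were the lowest. Its log2 fold change was -0.88 (SE 1.58, edgeR adjusted p = 0.9997), and it was -2.40 without knockout mouse 3 and -0.31 without knockout mouse 4.

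Egfl7 (ENSMUSG00000026921.21, chromosome 2, 26470026 to 26483132 on the plus strand) encodes a matrix protein secreted by endothelium, and its gene hosts the microRNA Mir126a. It was at 36.0, 51.2 and 52.9 CPM in knockout mice 2, 3 and 4, against 36.2, 29.2, 57.0 and 69.2 CPM in wild-type mice 5, 6, 7 and 8. All 3 knockout values lay inside the wild-type range. Its log2 fold change was -0.04 (SE 0.43, edgeR adjusted p = 0.9997) and changed sign with the scaling, to 0.05 by library size alone. Exons of Egfl7 share 64 bases with Agpat2, a triglyceride synthesis gene on the opposite strand at 28.9 ± 14.6 CPM in knockout skin, against 44.3 ± 35.4 CPM in skin of the wild type, so this level too is uncertain.

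**Figure D2:**
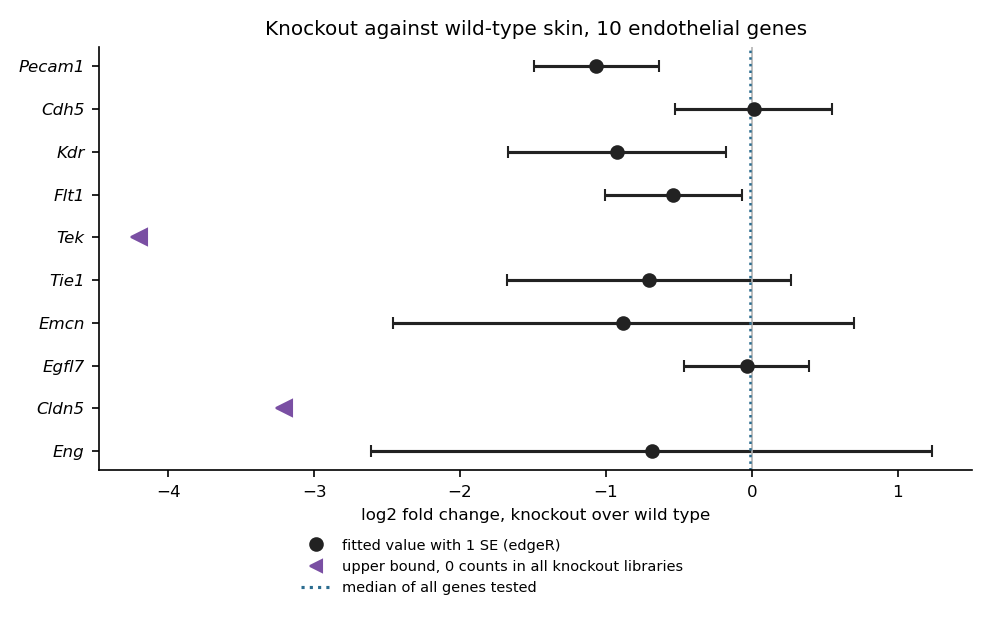
Fitted log2 fold change, knockout over wild type (x axis), with 1 SE for 8 of the endothelial genes (circles). Triangles give upper bounds, by counting error alone, for Tek and Cldn5, which had 0 counts in the 3 knockout libraries. The dotted line is the median of all genes tested at -0.01. Pecam1 at -1.07 lies farthest below 0 among the circles, while Cdh5 and Egfl7 lie at 0.01 and -0.04.

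The genes did not move as 1 block from mouse to mouse. Knockout mouse 4 was lowest, or tied for lowest, in 6 of the 10 genes, knockout mouse 2 in 4 and knockout mouse 3 in 2. Wild-type mouse 7 was lowest for Kdr and tied at 0 for Cldn5, yet highest for Tie1. The ratio of Cdh5 to Pecam1 counts was 0.536, 1.35 and 1.57 in knockout mice 2, 3 and 4, against 0.558, 0.459, 0.534 and 0.402 in wild-type mice 5, 6, 7 and 8. Knockout mice 3 and 4 had more Cdh5 than Pecam1 counts, and knockout mouse 2 lay among the wild-type mice. The ratio of Kdr to Flt1 ran from 0.292 to 1.14 in knockout and from 0.0697 to 1.93 in wild-type mice. These pairs were chosen after their values were seen and were not tested.

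**Figure D3:**
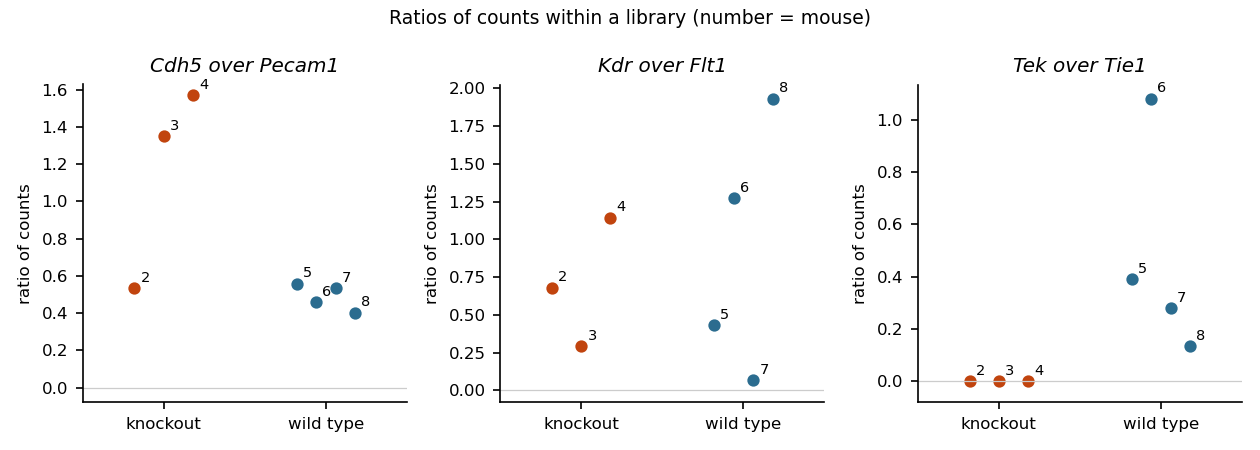
Ratio of counts within a library (y axis) for 3 pairs of endothelial genes in knockout mice 2 to 4 and wild-type mice 5 to 8. Cdh5 over Pecam1 reaches 1.35 and 1.57 in knockout mice 3 and 4 and stays between 0.402 and 0.558 in wild-type mice, Kdr over Flt1 overlaps, and Tek over Tie1 is 0 in the knockout mice because Tek had no counts.

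The spread between mice was larger than counting error throughout. In the 18 groups of values with any count, the coefficient of variation (CV) between mice was 2.84 to 13.5 times that expected from counting, with a median of 6.53 times. It was lowest for Egfl7 in knockout mice (19.9%) and highest for Eng in knockout mice (129%). Kdr had a CV of 21.2% in knockout and 70.4% in wild-type mice, at a counting error of 7.45% and 5.21%.

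**Figure D4:**
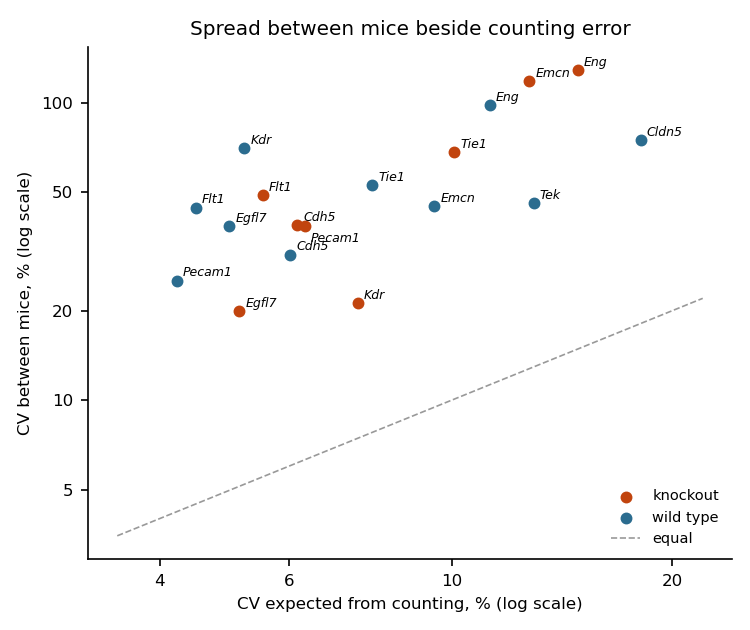
CV between mice (y axis, log scale) against the CV expected from counting (x axis, log scale) for each gene in knockout and wild-type mice, with a dashed line where they are equal and no knockout point for Tek and Cldn5, which had no counts there. All 18 points lie above the line, by 2.84 to 13.5 times.

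The other genes of these pathways had medians closer to 0 than the 10 genes, and the difference between lists was not tested. Of 16 VEGF and angiopoietin ligands and co-receptors, 14 were tested, with 7 above 0, 7 below and a median log2 fold change of -0.03. None was called, higher or lower, by edgeR, and 0 had an unadjusted p under 0.05. Vegfd, a ligand of the lymphatic VEGF receptor, was at 58.2 ± 25.7 CPM in knockout skin, against 33.2 ± 14.7 CPM in skin of the wild type. Calcrl and Ramp2, which together form the adrenomedullin receptor, were at 53.2 ± 15.6 and 41.9 ± 18.2 CPM in knockout skin, against 34.6 ± 13.8 and 57.7 ± 12.3 CPM in skin of the wild type. The angiopoietins Angpt1 and Angpt2, ligands of TIE2 named after their values were seen, were at 3.64 ± 3.98 and 3.72 ± 3.32 CPM in knockout skin, against 14.5 ± 15.0 and 5.41 ± 6.40 CPM in skin of the wild type.

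Partners at endothelial junctions had 7 genes above 0 and 11 below among 18 tested, a median of -0.13 and 0 calls by edgeR (0 at an unadjusted p under 0.05). Cd99l2, an adhesion protein of leukocyte passage, was at 14.2 ± 11.1 CPM in knockout skin, against 41.6 ± 19.3 CPM in skin of the wild type. Ctnnd1 (p120-catenin) was above wild type without overlap, at 354 ± 30.2 CPM in knockout skin, against 274 ± 35.2 CPM in skin of the wild type, and F11r (JAM-A) below, at 182 ± 31.5 CPM in knockout skin, against 228 ± 20.8 CPM in skin of the wild type. Both are abundant in keratinocytes too. Ptprb, the endothelial phosphatase that acts on TIE2 and VE-cadherin and was picked out after its values were seen, was at 55.0 ± 3.22 CPM in knockout skin, against 55.6 ± 3.82 CPM in skin of the wild type. BMP and TGF-beta pathway genes had 5 above 0 and 8 below among 13 tested, with a median of -0.22 and 0 calls (0 at an unadjusted p under 0.05). Among them the target gene Id3 was at 77.5 ± 36.1 CPM in knockout skin, against 124 ± 24.9 CPM in skin of the wild type, and the receptor Tgfbr2 at 82.9 ± 5.78 CPM in knockout skin, against 51.8 ± 25.9 CPM in skin of the wild type.

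A further 27 markers of endothelium each had counts in at least 1 library, so endothelial transcripts were present in these skin libraries, and 23 were tested. Not all were found throughout: Nos3 and Esm1 were at 0 in 6 libraries, Lyl1 and Myct1 in 5 and Clec14a in 4. Their log2 fold changes had a median of 0.08, with 12 above 0 and 11 below, and edgeR called 0 (1 at an unadjusted p under 0.05). The summed level of these 27 was 1056, 850 and 776 CPM in knockout mice 2, 3 and 4, against 1058, 1064, 868 and 1136 CPM in wild-type mice 5, 6, 7 and 8. Aqp1, a water channel gene, was at 79.0 ± 28.1 CPM in knockout skin, against 150.4 ± 46.9 CPM in skin of the wild type (log2 fold change -0.93, SE 0.35, unadjusted p = 0.0190, edgeR adjusted p = 0.9997). The sphingosine phosphate receptor gene S1pr1 was at 15.2 ± 11.3 CPM in knockout skin, against 41.3 ± 17.2 CPM in skin of the wild type. Rgcc, a regulator of the cell cycle, was at 97.5 ± 36.2 CPM in knockout skin, against 150.4 ± 41.8 CPM in skin of the wild type. Palmd was at 66.4 ± 19.9 CPM in knockout skin, against 102 ± 27.2 CPM in skin of the wild type. These genes were named for the smallest p in the list, and all are among the 11 below 0. Of the 12 above 0, Vwf and Cd34 were picked out after their values were seen. They were at 18.6 ± 15.1 and 253 ± 97.0 CPM in knockout skin, against 6.47 ± 7.17 and 211 ± 31.1 CPM in skin of the wild type. Cd34 had the highest mean of the 27 in both groups and so weighs most in their sum. The part of other skin cells in its level was not tested. With 1 mouse left out the median of the 23 ran from -0.20 to 0.11, while that of the 10 genes ran from -1.07 to -0.53. These ranges are no test of a difference, since both lists were chosen with earlier results of these data known. Among the 10, Tek and Cldn5 were tested only through wild-type counts, and Cldn5 dropped out without wild-type mouse 5, 6 or 8.

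By vessel type, arterial genes had a median of 0.04 over 9 tested, venous and inflamed endothelial genes -0.52 over 6 and lymphatic genes 0.25 over 6, with 0 calls by edgeR in each (2, 0 and 0 at an unadjusted p under 0.05). Efnb2, the arterial ephrin, was above wild type without overlap at 45.9 ± 21.4 CPM in knockout skin, against 18.6 ± 2.79 CPM in skin of the wild type (log2 fold change 1.31, SE 0.55, edgeR adjusted p = 0.9997). Jag1, a Notch ligand, was at 66.4 ± 34.6 CPM in knockout skin, against 119 ± 27.7 CPM in skin of the wild type. Both are also expressed in hair follicle epithelium. Nr2f2, the venous transcription factor, was at 47.0 ± 13.6 CPM in knockout skin, against 53.8 ± 9.68 CPM in skin of the wild type, and Ackr1, the venular chemokine receptor, at 8.92 ± 2.43 CPM in knockout skin, against 16.1 ± 10.8 CPM in skin of the wild type. The lymphatic genes Mmrn1 and Pdpn were at 21.8 ± 15.5 and 62.7 ± 53.1 CPM in knockout skin, against 5.22 ± 6.41 and 47.2 ± 20.4 CPM in skin of the wild type, and Flt4, the lymphatic VEGF receptor, at 1.17 ± 1.91 CPM in knockout skin, against 9.94 ± 12.8 CPM in skin of the wild type.

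**Figure D5:**
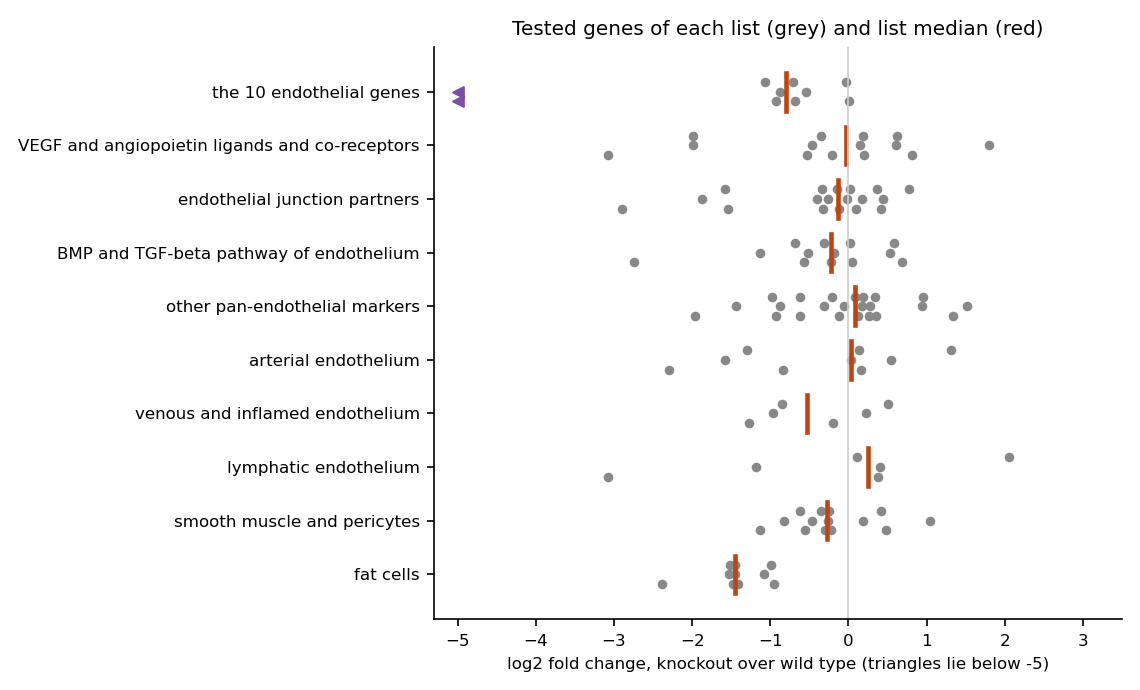
Log2 fold change, knockout over wild type (x axis), of each tested gene (grey) in the 10 endothelial genes and 9 other lists, with the list median in red and triangles for Tek and Cldn5, whose fitted values lie off the scale because the knockout libraries had 0 counts. The 10 genes have a median of -0.79 and the further endothelial markers one of 0.08, while fat cell genes have one of -1.45.

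Vessel-wrapping smooth muscle cells and pericytes had 10 of 14 genes below 0 and a median of -0.28, with 0 calls by edgeR (1 at an unadjusted p under 0.05). Mcam (CD146), which both mural and endothelial cells carry, was at 73.6 ± 29.1 CPM in knockout skin, against 162 ± 29.9 CPM in skin of the wild type without overlap (log2 fold change -1.13, SE 0.32, edgeR adjusted p = 0.721, with a range from 0.0283 in the DESeq2 Wald test to 0.99999 over the alternatives). The summed level of the 14 genes was 919 to 1179 CPM in knockout skin, against 1178 to 1507 CPM in skin of the wild type.

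Fat cell and erythrocyte genes had log2 fold changes below 0, as had 9 of the 10 genes. Other tissues differed, with 8 of 8 skeletal muscle genes above 0 (median 0.44) and 7 of 8 fibroblast genes (median 0.46). Keratinocyte genes had 4 of 8 above 0 (median 0.06). In these 3 lists edgeR called 0 genes (1 in each at an unadjusted p under 0.05). All 10 listed fat cell genes were below 0, with a median of -1.45, and 0 were called by edgeR (10 at an unadjusted p under 0.05). Their sum was 5604, 4771 and 3243 CPM in knockout mice 2, 3 and 4, against 10637, 14080, 8296 and 13545 CPM in wild-type mice 5, 6, 7 and 8. Adipoq was at 300.4 ± 53.8 CPM in knockout skin, against 833 ± 194 CPM in skin of the wild type (edgeR adjusted p = 0.0934). Both Adipoq and the lipase gene Lpl (edgeR adjusted p = 0.101) were called lower by edgeR without the filter on low counts, by the DESeq2 Wald test and by limma-voom. The adjusted p over all alternatives ranged from 8.71e-09 to 0.541 for Adipoq and from 6.06e-08 to 0.563 for Lpl. Knockout mouse 4 and wild-type mouse 7 had the lowest sum of their group for the fat genes and for the 10 endothelial genes alike. The highest sums did not match. They lay in knockout mouse 2 and wild-type mouse 6 for the fat genes, and in knockout mouse 3 and wild-type mouse 5 for the 10 genes. Of 6 erythrocyte genes 4 were tested, all below 0 with a median of -0.95 and 0 calls by edgeR (2 at an unadjusted p under 0.05). The beta-globin genes Hbb-bs and Hbb-bt, close copies whose counts are uncertain for that reason, were called lower by edgeR without the filter on low counts (adjusted p = 0.00413 and 0.00509), and their adjusted p reached 0.99999 over the alternatives. The sum of the 6 genes was 250 to 761 CPM in knockout skin, against 456 to 1451 CPM in skin of the wild type, with Alas2 at 0 in each library. Sums for keratinocyte genes were 14748 to 15908 CPM in knockout skin, against 14201 to 17539 CPM in skin of the wild type, those for skeletal muscle genes 13820 to 22606 CPM in knockout skin, against 13373 to 18768 CPM in skin of the wild type, and those for fibroblast genes 11411 to 30464 CPM in knockout skin, against 11068 to 18875 CPM in skin of the wild type. The part of these tissues in the endothelial values was not tested.

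Outside the 10, a mean of 20 CPM or more was reached by 6715 of the genes tested. Centred log2(CPM + 1) values over the 7 libraries were compared with the mean profile of the 10. The closest genes were Hibch, Gpr107, Ghr, Fam162a and Serpina3n. Their root mean square distances were 0.113, 0.156, 0.163, 0.167 and 0.189 log2 units, against a median of 0.768 over the genes compared. Hibch, an enzyme of valine breakdown, was at 23.9 ± 6.86 CPM in knockout skin, against 49.6 ± 8.75 CPM in skin of the wild type, and Ghr, the growth hormone receptor gene, at 222 ± 72.4 CPM in knockout skin, against 409 ± 92.7 CPM in skin of the wild type. None of the 5 was called (edgeR adjusted p from 0.746 to 0.9997). Among the 10 genes Pecam1 lay closest to their mean profile, at 0.232, and Eng farthest, at 1.33. Between them lay Flt1 (0.514), Cdh5 (0.580), Egfl7 (0.761), Cldn5 (0.788), Emcn (0.951), Tie1 (0.958), Kdr (1.07) and Tek (1.15). Each of the 10 is itself part of that mean profile. Tek, Cldn5, Emcn, Tie1 and Eng also had means below 20 CPM in both groups. These distances therefore cannot be set against the median of 0.768 over other genes.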

How the data were processed

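The authors deposited whole-number counts for 56691 genes and 7 libraries. Per the labels' protocols, RNA came from powdered frozen skin by TRIzol and libraries from the QuantSeq 3' kit. Per the submitters' processing notes, STAR, GATK 4.2.4.0, featureCounts, Subread 2.0.3, edgeR 3.36.0 and the mm39 build were used, in no stated order. A second table, of log2 values the authors filtered and normalized for 12954 genes, served only to define an alternative gene set. All 90678 of its values were matched within 1e-09 by edgeR's log2 CPM (TMM, prior count 2) computed here from the raw counts.

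Libraries were grouped by the genotype in the labels. Counts were compared in edgeR 4.0.16 under R 4.3.3, with the expression filter at a minimum of 10 counts, TMM factors and the quasi-likelihood F test. This left 12888 genes, and the standard error was derived from the F statistic. Single levels were compared by an exact two-sided permutation test over 35 splits on log2(CPM + 1). The labels do not say whether the mice differ in litter or batch. Alternatives were DESeq2 1.42.0, limma-voom (limma 3.58.1), other scalings and filters, and leaving out each mouse. Fits were checked on simulated data. The limit for 0 counts, taken as 3 counts, is 0.323 to 0.395 CPM by library and covers counting error only.

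The 10 genes and 15 other lists of 172 genes in all were chosen with earlier results of these data known. Named genes were the 10, up to 4 genes of smallest p from each endothelial list and up to 2 from each list of another tissue, not all of them printed, and the 5 genes closest in profile. Gja4, Gja5 and Flt4 are each in 2 lists. Protein sequences are not used here.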

Additional observations from a re-analysis of the deposited data

Results flagged for a closer look

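Among 54 genes whose 4 wild-type values were compared, 5 held 1 distant mouse. Chance flags about 1 in 20, or 2.7 here. Values are log2(CPM + 1). Tek had 1.69 in mouse 8 of the wild type, against 3.09 to 3.31 in the others. Tuft1 had 5.82 in mouse 7 of the wild type, against 6.71 to 6.85. Ackr1 had 0.98 in mouse 5 of the wild type, against 4.14 to 4.74. Itgb3, an integrin of platelets and other cells, had 0.42 in mouse 6 of the wild type, against 2.54 to 2.98. Itga2b, the platelet integrin, was at 1.75 in wild-type mouse 5 and at 0 counts in the other 3.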

How the results depend on the processing

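Over all genes, 3 were called in edgeR with TMM factors, against 76 without a filter on low counts, 123 by the DESeq2 Wald test, 22 by limma-voom and 0 to 1 with 1 mouse left out. None of the 10 genes was called under any of these or under the 3 other settings (DESeq2 size factors, library size alone, the authors' gene set). Their median log2 fold change of -0.79 ran from -1.07 without knockout mouse 3 to -0.53 without wild-type mouse 8 or knockout mouse 4. Placing Tek and Cldn5 at their bounds leaves it at -0.79 by construction, since they are the lowest 2 either way. The number below 0 was 8 to 9 of 10 in the settings with all mice, and 7 of 9 to 10 of 10 with 1 left out. Cldn5 was not tested without wild-type mouse 5, 6 or 8 and had no adjusted p in the DESeq2 Wald test. Calls were gained without the filter by Tuft1, Adipoq, Lpl, Hbb-bs, Hbb-bt and Myh4, in the DESeq2 Wald test by Tuft1, Mcam, Adipoq and Lpl, and in limma-voom by Adipoq and Lpl. The sign of Cdh5 (up to 0.22 with 1 mouse left out) turned to -0.34 without knockout mouse 3, -0.11 and -0.08 without wild-type mice 7 and 8, and its difference of mean log2(CPM + 1) to 0.0480 by library size. That of Egfl7 (down to -0.22) turned to 0.0456 by library size, 0.0555 in limma-voom, 0.12 without knockout mouse 2, 0.06 and 0.20 without those same mice. Eng turned to 0.0417 without wild-type mouse 6 and went to -2.54 without knockout mouse 2. Without knockout mouse 2, Pdpn was at -0.53, Ccl21a at -1.30 and Col1a2 at -0.14, where other mice left out gave up to 0.82, 0.82 and 0.75, and Ccl21a was at -0.149 in limma-voom. The cause was not tested. No paired analysis was possible because no mouse number occurs in both genotypes. Tek, Cldn5, Emcn and Eng had the fewest counts of the 10, and depth was not varied.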
